A study of Mus musculus with 15 samples.

Results

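The costimulatory and checkpoint ligands of mononuclear phagocytes were taken as 10 genes, Cd40, Cd80, Cd86, Cd83, Cd274, Pdcd1lg2, Icosl, Tnfsf4, Tnfsf9 and Cd70, chosen by name as surface molecules through which antigen-presenting cells address T cells. All 10 symbols were found among the 38924 Ensembl genes of the deposited tables, and 9 were among the 14456 genes abundant enough to be tested (above 1 CPM, counts scaled to library size, in at least 3 libraries). The exception was Tnfsf4. RNA had been sequenced from 5 subtypes sorted from naive C57BL/6 mice aged 6 to 8 weeks, with 3 libraries of each: splenic CD8+ DCs and splenic CD4+ DCs (both CD11c+ MHCII+), CD103+ DCs and CD11b+ DCs from lung-draining lymph nodes (LN), also CD11c+ MHCII+, and splenic Ly6C+ CD11b+ monocytes. Splenic CD8+ and LN CD103+ DCs belong to the DC1 lineage, splenic CD4+ and LN CD11b+ DCs to DC2. No animal carried a mutation or received a treatment. Per the study's methods the mice were female, a library was a pool of cells from 5 mice, lymph nodes and spleens came from different cohorts, and the sort of DCs from LN kept cells with much MHC class II, to take migratory ones. The organ of a DC can therefore not be told apart from its cohort or from this gate for migratory cells. The organ differences below hold all of these together. The p values refer to the spread between pools.

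A T cell that meets its antigen on a DC also reads costimulatory ligands. CD80 and CD86 bind CD28, which amplifies activation, and CTLA-4, which restrains it, while PD-L1 (encoded by Cd274) and PD-L2 (Pdcd1lg2) bind the inhibitory receptor PD-1. ICOS ligand and the TNF superfamily members OX40L (Tnfsf4), 4-1BBL (Tnfsf9) and CD70 engage receptors that sustain activated T cells, and CD40 is the DC receptor through which CD40 ligand on helper T cells licenses the cell. DCs that leave a tissue for the draining LN mature on the way and are known for high MHC class II and CCR7.

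The libraries held 4531243 to 10233914 counts on genes. The subtypes carried the markers of their labels. Summed over 8 DC1 genes (Xcr1, Clec9a and others), splenic CD8+ DCs had 5069 to 8102 CPM and splenic CD4+ DCs 763 to 1067 CPM, and LN CD103+ DCs had 879.8 to 1302 CPM against 368 to 546 CPM in LN CD11b+ DCs. The 8 genes of migratory DCs (Ccr7, Fscn1 and others) summed to 9402 to 19739 CPM in LN DCs and to at most 729 CPM in the other 9 libraries. The 9 monocyte genes summed to 24059.7 to 26220 CPM in monocytes and to 1561 to 2657 CPM in LN CD11b+ DCs, against 815 to 1006 CPM in splenic CD4+ DCs and at most 321 CPM in the DC1 subtypes. In the DC2 organ comparison 6 of 9 monocyte genes were higher in the LN, as were 3 of 3 tested alveolar macrophage genes. Of all genes 19.3% were higher. Lyz2 had 1407 against 284 CPM and Fabp4 42.5 against 2.11 CPM. Of the 6 listed alveolar macrophage genes, the untested Siglecf was lower in the LN (means 0.0846 against 0.780 CPM). Car4 and Krt79, also untested, were at 0 throughout. Chil3, among the tested ones, had its highest mean in monocytes (822 CPM). The DC2 list (Sirpa, Irf4 and others) did not set DCs apart from monocytes, which had 2421 to 2715 CPM against 1845 to 2819 CPM in splenic CD4+ DCs. The 9 T cell markers summed to 92.3 to 177 CPM in LN DCs and to 4.99 to 26.9 CPM in splenic DCs. Monocytes had 1.57 to 4.47 CPM, with Cd3e at 0 counts. Lck led the LN sum, with means of 49.2 CPM in CD103+ and 39.3 CPM in CD11b+ DCs. In each lineage 8 of 9 were higher in the LN (23.8% of all genes in DC1, 19.3% in DC2). Cd5 was lower in the LN in DC2 (5.36 against 12.5 CPM). LN CD103+ DC replicate 1 stood apart for 10 B cell markers, at 302 CPM against at most 113 CPM in the other 14 libraries. The part of such cells in the levels below was not tested.

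The genes lie apart in the genome except for close neighbours (mm10, as in the count tables). Cd274 (chr19:29367455-29388095) and Pdcd1lg2 (chr19:29410919-29471157) are adjacent on the + strand with 22824 bases between them, and Tnfsf9 (chr17:57105385-57107757) and Cd70 (chr17:57145997-57149777) are 38240 bases apart on opposite strands. Cd86 (chr16:36603869-36666081) and Cd80 (chr16:38458933-38486933) share a chromosome at a distance of 1792852 bases. No exon of the 10 genes overlapped an exon of another gene, so unstranded counting did not mix them with a neighbour. RefSeq promoters (GRCm38.p6) were matched for Cd80, Cd274, Pdcd1lg2 and Icosl. The first 3 are shown, as the 250 bases before the RefSeq start, since Cd274 and Pdcd1lg2 are neighbours whose levels followed each other most closely of all pairs of the 9 tested genes (Pearson r = 0.949 over 15 libraries), while Cd80 followed no other of them closely (r from -0.16 to 0.43). Capitals mark a motif.
Cd274, chr19:29367188-29367437 (+ strand): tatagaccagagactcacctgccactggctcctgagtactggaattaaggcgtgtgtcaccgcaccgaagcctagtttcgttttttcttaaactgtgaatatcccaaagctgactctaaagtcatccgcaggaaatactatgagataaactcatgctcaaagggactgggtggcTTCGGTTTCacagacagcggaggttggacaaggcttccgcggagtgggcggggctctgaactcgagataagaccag
Pdcd1lg2, chr19:29410669-29410918 (+ strand): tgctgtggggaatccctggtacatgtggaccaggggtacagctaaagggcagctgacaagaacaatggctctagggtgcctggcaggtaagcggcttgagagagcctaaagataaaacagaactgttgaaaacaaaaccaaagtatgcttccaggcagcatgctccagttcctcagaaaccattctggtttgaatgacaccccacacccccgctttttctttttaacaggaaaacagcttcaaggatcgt
Cd80, chr16:38458683-38458932 (+ strand): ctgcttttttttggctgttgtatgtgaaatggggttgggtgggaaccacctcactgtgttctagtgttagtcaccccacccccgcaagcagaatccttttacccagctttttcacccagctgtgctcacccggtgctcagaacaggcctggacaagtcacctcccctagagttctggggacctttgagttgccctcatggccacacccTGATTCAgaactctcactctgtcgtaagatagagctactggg
Both strands were searched for 5 motifs: kappaB GGANNTTCC, GAS TTCNNNGAA, the interferon motif GAAANNGAA, AP-1 TGANTCA and PU.1 GAGGAAG. The Cd274 window held the interferon motif on the - strand 76 bases before the start, a match found in 7.13% of 32851 promoter windows, and the Cd80 window held the AP-1 letters 42 bases before the start, as did 6.75% of windows. In the Pdcd1lg2 and Icosl windows none of the 5 was found. These matches are a description of letters.

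**Figure D1:**
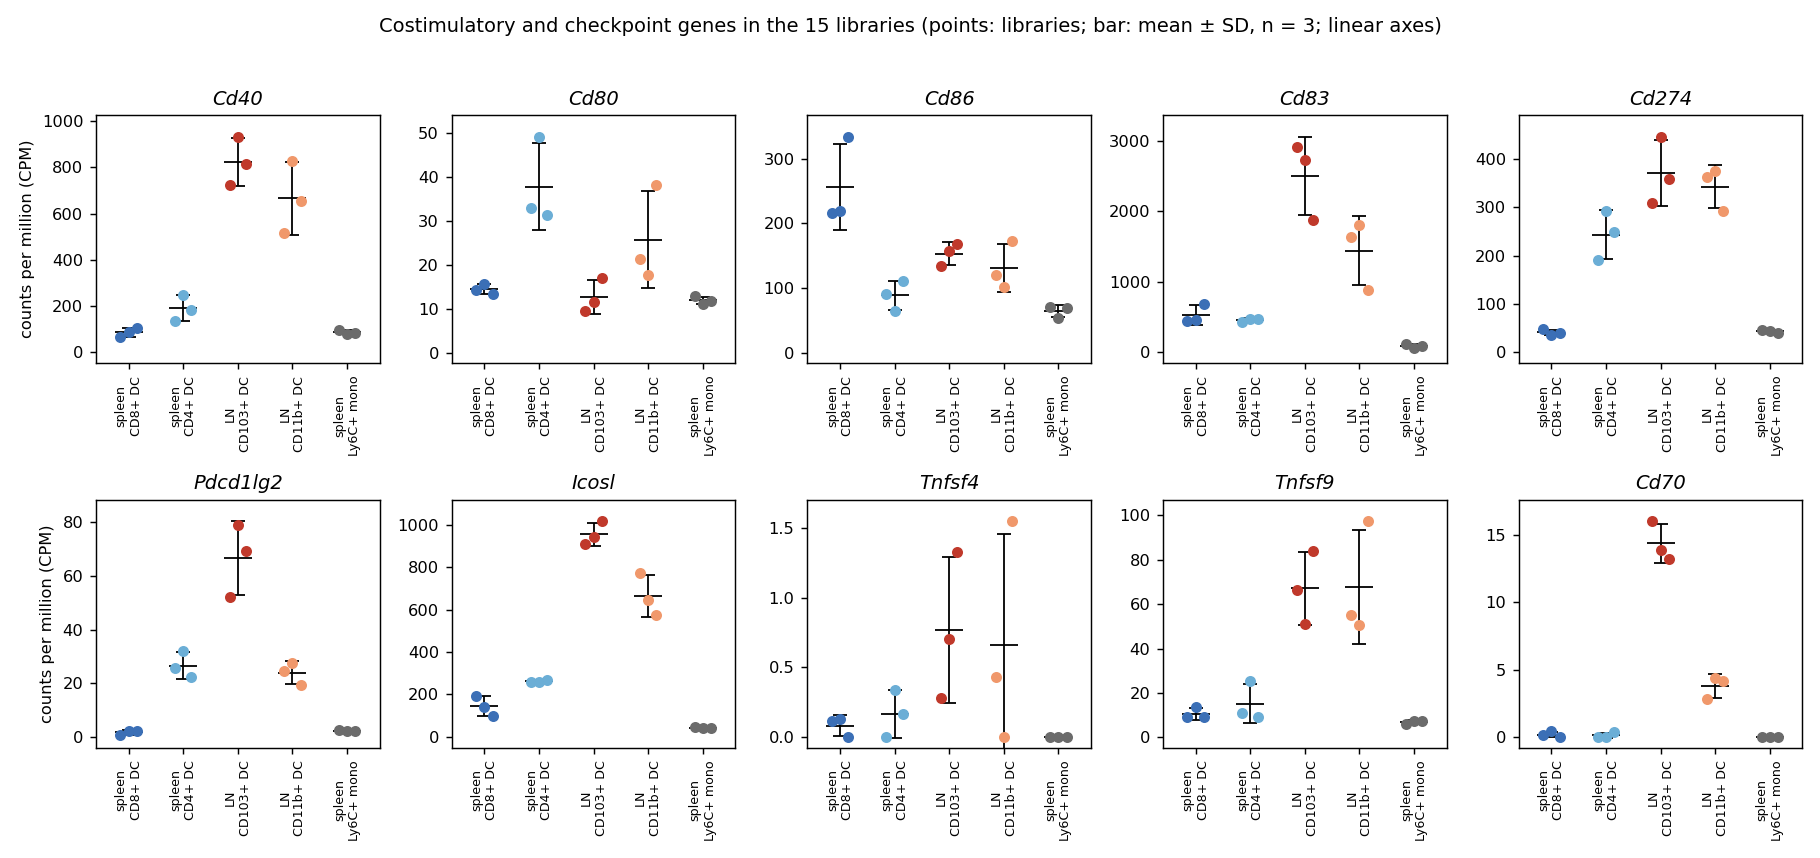
Level of each of the 10 genes in every library, in CPM on linear axes, with 3 points per subtype and the mean ± SD. LN DCs were above all splenic libraries for Cd40, Cd83, Icosl, Tnfsf9 and Cd70, while Cd86 was highest in splenic CD8+ DCs (216 to 334 CPM) and Cd80 in splenic CD4+ DCs (31.3 to 49.1 CPM, overlapping LN CD11b+ DCs).

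Within a lineage neither CD28 ligand was higher in the LN than in the spleen by the test without a replicate block. Cd86 was highest in splenic CD8+ DCs, and Cd80 had its highest mean in splenic CD4+ DCs. Cd86 (chr16, - strand) stood at 216, 218 and 334 CPM in the 3 splenic CD8+ DC libraries and at 91.2, 64.7 and 110.1 CPM in splenic CD4+ DCs. The LN CD103+ DC libraries gave 133, 157 and 168 CPM, the LN CD11b+ DC libraries 119.7, 101 and 172 CPM, and the monocytes 70.7, 53.3 and 69.0 CPM. Every splenic CD8+ DC library thus lay above the other 12. The difference from splenic CD4+ DCs was 2.89-fold (log2 1.53 ± 0.25 SE, adjusted p = 0.00014; edgeR quasi-likelihood test with Benjamini-Hochberg adjustment, as for all adjusted p below). LN CD103+ DCs had 1.67-fold less Cd86 than splenic CD8+ DCs (log2 -0.74 ± 0.24, adjusted p = 0.0168). This call was lost without splenic CD8+ DC replicate 3, the highest library (log2 -0.51, adjusted p = 0.111), and without LN CD103+ DC replicate 1, the library with B cell markers (log2 -0.65, adjusted p = 0.0679). In the DC2 lineage the LN value was 1.47-fold the splenic one and missed the threshold (log2 0.56, 95% interval 0.05 to 1.07, adjusted p = 0.0867), and it passed without splenic CD4+ DC replicate 3 (adjusted p = 0.038) or LN CD11b+ DC replicate 2 (adjusted p = 0.0479). With the replicate number as a block, Cd86 in DC2 passed (log2 0.55, adjusted p = 0.0195).

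Cd80 had a lower mean CPM than Cd86 in every subtype. In length-scaled abundance (TPM), the means in splenic CD4+ DCs were 54.2 for Cd80 and 61.6 for Cd86. In splenic CD8+ DCs they were 20.3 and 168 TPM. Splenic CD4+ DCs had 32.8, 49.1 and 31.3 CPM and LN CD11b+ DCs 21.3, 17.6 and 38.2 CPM, groups that overlapped. The other subtypes were lower, with 13.3 to 15.5 CPM in splenic CD8+ DCs, from 9.48 to 16.9 CPM for LN CD103+ DCs and from 11.1 to 12.8 CPM in monocytes. Cd80 was thus higher in the DC2 subtype of each organ. Splenic CD8+ DCs had 2.63-fold less than splenic CD4+ DCs (log2 -1.39 ± 0.29, adjusted p = 0.00166). LN CD103+ DCs had 2.03-fold less than LN CD11b+ DCs (log2 -1.01 ± 0.30, adjusted p = 0.0288), a call that did not hold without LN CD103+ DC replicate 1 (adjusted p = 0.123), LN CD103+ DC replicate 2 (adjusted p = 0.112) or LN CD11b+ DC replicate 3 (log2 -0.63, adjusted p = 0.196). Between the organs Cd80 passed no test, with log2 -0.19 in DC1 (95% interval -0.81 to 0.43) and -0.56 in DC2 (-1.17 to 0.04); without LN CD11b+ DC replicate 3, the library with the fewest counts and the highest Cd80 of its group, the DC2 difference passed (log2 -0.95, adjusted p = 0.0172). With a replicate block within each organ the Cd80 difference in DC2 passed as well (log2 -0.61, adjusted p = 0.0461).

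Both PD-1 ligands were lower in splenic CD8+ DCs and monocytes than in the other 3 DC subtypes. Cd274 had 48.0, 36.4 and 39.2 CPM in splenic CD8+ DCs and 46.8, 43.6 and 40.0 CPM in monocytes. Splenic CD4+ DCs had 190.4, 292 and 249 CPM, LN CD103+ DCs 309.7, 446 and 359 CPM, and LN CD11b+ DCs 362, 376 and 292 CPM. No library of the first 2 subtypes reached those of the other 3, while the 3 overlapped in part. Cd274 was 5.92-fold lower in splenic CD8+ than in splenic CD4+ DCs (log2 -2.56 ± 0.21, adjusted p = 6.90e-08) and 9.02-fold higher in LN CD103+ DCs than in splenic CD8+ DCs (log2 3.17 ± 0.22, adjusted p = 1.71e-09). The organ difference in DC2 missed the threshold (log2 0.49, 95% interval 0.08 to 0.91, adjusted p = 0.0646), though that difference passed without splenic CD4+ DC replicate 2 (adjusted p = 0.0272) or LN CD11b+ DC replicate 3 (adjusted p = 0.0407), with DESeq2 (adjusted p = 0.0499) and with the replicate block (log2 0.50, adjusted p = 0.0428). The 2 LN DCs were not separated by the test (log2 0.11, 95% interval -0.30 to 0.53, adjusted p = 0.788).

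Pdcd1lg2 followed the same outline with a wider range. Splenic CD8+ DCs held 4, 17 and 18 counts (0.478, 2.29 and 2.06 CPM) and monocytes 2.36, 2.33 and 2.23 CPM. Splenic CD4+ DCs had 25.6, 31.9 and 22.1 CPM, LN CD11b+ DCs 24.7, 27.7 and 19.4 CPM, and LN CD103+ DCs 52.0, 78.9 and 69.2 CPM. The LN CD103+ DC libraries were above all the others. Against splenic CD8+ DCs the LN CD103+ DCs were 41.4-fold higher (log2 5.37 ± 0.37, adjusted p = 1.84e-09), and against LN CD11b+ DCs 2.79-fold higher (log2 1.47 ± 0.29, adjusted p = 0.00196). In DC2 the organs gave log2 -0.14 (95% interval -0.75 to 0.47, adjusted p = 0.755). The difference between the organ effects was therefore the widest of the 9 genes, log2 5.51 ± 0.47 (adjusted p = 5.54e-07).

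Icosl, the ICOS ligand gene (chr10:78069360-78079525), ordered the 5 subtypes without overlap. The LN CD103+ DC libraries stood at 908, 941 and 1016 CPM, the LN CD11b+ DC libraries at 773, 648 and 576 CPM, and there were 260.1, 258 and 269 CPM in splenic CD4+ DCs. Splenic CD8+ DCs followed with 192, 143 and 96.4 CPM and monocytes with 44.2, 42.9 and 40.6 CPM. The LN excess was 6.65-fold in DC1 (log2 2.73 ± 0.22, adjusted p = 1.21e-08) and 2.53-fold in DC2 (log2 1.34 ± 0.21, adjusted p = 6.84e-05). Of the neighbours in the order, the 2 LN DCs were not separated by the test (log2 0.52, 95% interval 0.09 to 0.96, adjusted p = 0.114), and each of the lower steps passed it (adjusted p from 2.49e-06 to 0.00452).

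Cd40 (chr2:165055627-165072948) and Cd83 (chr13:43785107-43803130) were higher in LN DCs than in splenic DCs of both lineages. They encode the licensing receptor and a maturation glycoprotein that holds MHC class II and CD86 at the surface. Cd40 had 724, 931 and 814 CPM in LN CD103+ DCs, while LN CD11b+ DCs had 514, 829 and 654 CPM. It had 136, 248 and 185 CPM in splenic CD4+ DCs, 67.3, 86.4 and 106 CPM in splenic CD8+ DCs, and 95.7, 80.6 and 85.2 CPM in monocytes. All 6 LN libraries were above all 9 splenic ones, and monocytes lay within the range of splenic CD8+ DCs. The LN excess was 9.51-fold in DC1 (log2 3.25 ± 0.25, adjusted p = 8.57e-09) and 3.51-fold in DC2 (log2 1.81 ± 0.24, adjusted p = 1.13e-05). Splenic CD8+ DCs had 2.19-fold less Cd40 than splenic CD4+ DCs (adjusted p = 0.00162).

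Cd83 was the most abundant of the 10 per unit of length in every subtype, with a mean of 2630 ± 545 TPM (length-scaled abundance, SD, n = 3) in LN CD103+ DCs, where it ranked 40 among all 38924 genes. In CPM the LN CD103+ DC libraries had 2906, 2721 and 1871, and the LN CD11b+ DC libraries 1626, 1803 and 881. Splenic CD8+ DCs had 437, 455 and 689.6 CPM, splenic CD4+ DCs 429, 473 and 475 CPM, and monocytes 117, 64.7 and 87.9 CPM. LN DCs were above splenic DCs without overlap, and monocytes were below all DCs. The organ difference was 4.74-fold in DC1 (log2 2.25 ± 0.29, adjusted p = 3.82e-06) and 3.13-fold in DC2 (log2 1.65 ± 0.28, adjusted p = 0.000161). Between the 2 LN DCs it missed the threshold (log2 0.80, 95% interval 0.22 to 1.38, adjusted p = 0.0656) and passed without LN CD103+ DC replicate 3, the lowest of its group (log2 0.97, adjusted p = 0.0474). The Cd83 difference between LN DCs also passed with DESeq2 (adjusted p = 0.0279), without the filter on low counts (0.00773), with the replicate block (0.0480) and with the block within organ (0.00977), at log2 0.80 to 0.84.

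The TNF superfamily ligands had their highest means in LN DCs. In LN CD103+ DCs the mean TPM was 124 for Tnfsf9, 38.6 for Cd70 and 0.949 for Tnfsf4, beside 94.5 for Cd86. Tnfsf9 (4-1BBL) had 66.2, 51.1 and 84.1 CPM in LN CD103+ DCs, while LN CD11b+ DCs had 55.0, 50.7 and 97.3 CPM. Splenic CD8+ DCs had 8.96, 13.7 and 9.27 CPM, splenic CD4+ DCs 10.7, 25.6 and 9.31 CPM, and monocytes 6.09, 7.48 and 7.36 CPM. The LN groups overlapped each other and no splenic library reached them. The LN excess was 6.30-fold in DC1 (log2 2.66 ± 0.36, adjusted p = 6.53e-06) and 4.46-fold in DC2 (log2 2.16 ± 0.35, adjusted p = 9.38e-05). Tnfsf9 in monocytes was 2.18-fold below splenic CD4+ DCs (log2 -1.10 ± 0.36, adjusted p = 0.0184), a call lost without splenic CD4+ DC replicate 2, the highest library (log2 -0.51, adjusted p = 0.221), or monocyte replicate 1 (log2 -1.02, adjusted p = 0.0607).

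Cd70, whose receptor is CD27, was at or near 0 counts in the spleen. LN CD103+ DCs had 115, 119 and 80 counts and LN CD11b+ DCs 26, 30 and 19 counts. Splenic CD8+ DCs had 1, 3 and 0 counts, splenic CD4+ DCs 0, 0 and 2 counts, and the monocytes none. Pooled over the 3 libraries and scaled by library size, LN CD103+ DCs had 88.5 times the level of splenic CD8+ DCs (95% counting interval 34.2 to 327). LN CD11b+ DCs had 35.7 times that of splenic CD4+ DCs (9.53 to 299.8). Cd70 passed the filter on low counts through its LN libraries alone. Its excess over the splenic subtypes, monocytes included, was thus fixed by the filter, and no p is given for it. With a floor of 3 counts over the monocyte group, Cd70 was at least 110.5-fold higher in LN CD103+ DCs and at least 27.8-fold higher in LN CD11b+ DCs than in monocytes. The 2 LN DCs differed 3.97-fold in pooled counts (log2 1.93 ± 0.53, adjusted p = 0.0226), without overlap between them. That call was lost when any of the 6 LN libraries was left out (adjusted p from 0.0537 to 0.0925), with log2 values from 1.74 to 2.06.

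Tnfsf4 (OX40L; chr1:161395409-161418410) was at the limit of detection. The counts were 2, 6 and 8 in LN CD103+ DCs, 4, 0 and 7 in LN CD11b+ DCs, 1, 1 and 0 in splenic CD8+ DCs, 0, 2 and 1 in splenic CD4+ DCs, and 0 in each monocyte library. LN CD103+ DCs had 9.02 times the pooled level of splenic CD8+ DCs (95% counting interval 2.12 to 80.8), and LN CD11b+ DCs 3.49 times that of splenic CD4+ DCs (0.921 to 19.5). Such intervals cover counting error only. When all genes with a count were fitted, neither organ difference passed (adjusted p = 0.122 and 0.444), and both LN DCs were above monocytes (adjusted p = 0.0116 and 0.0225).

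**Figure D2:**
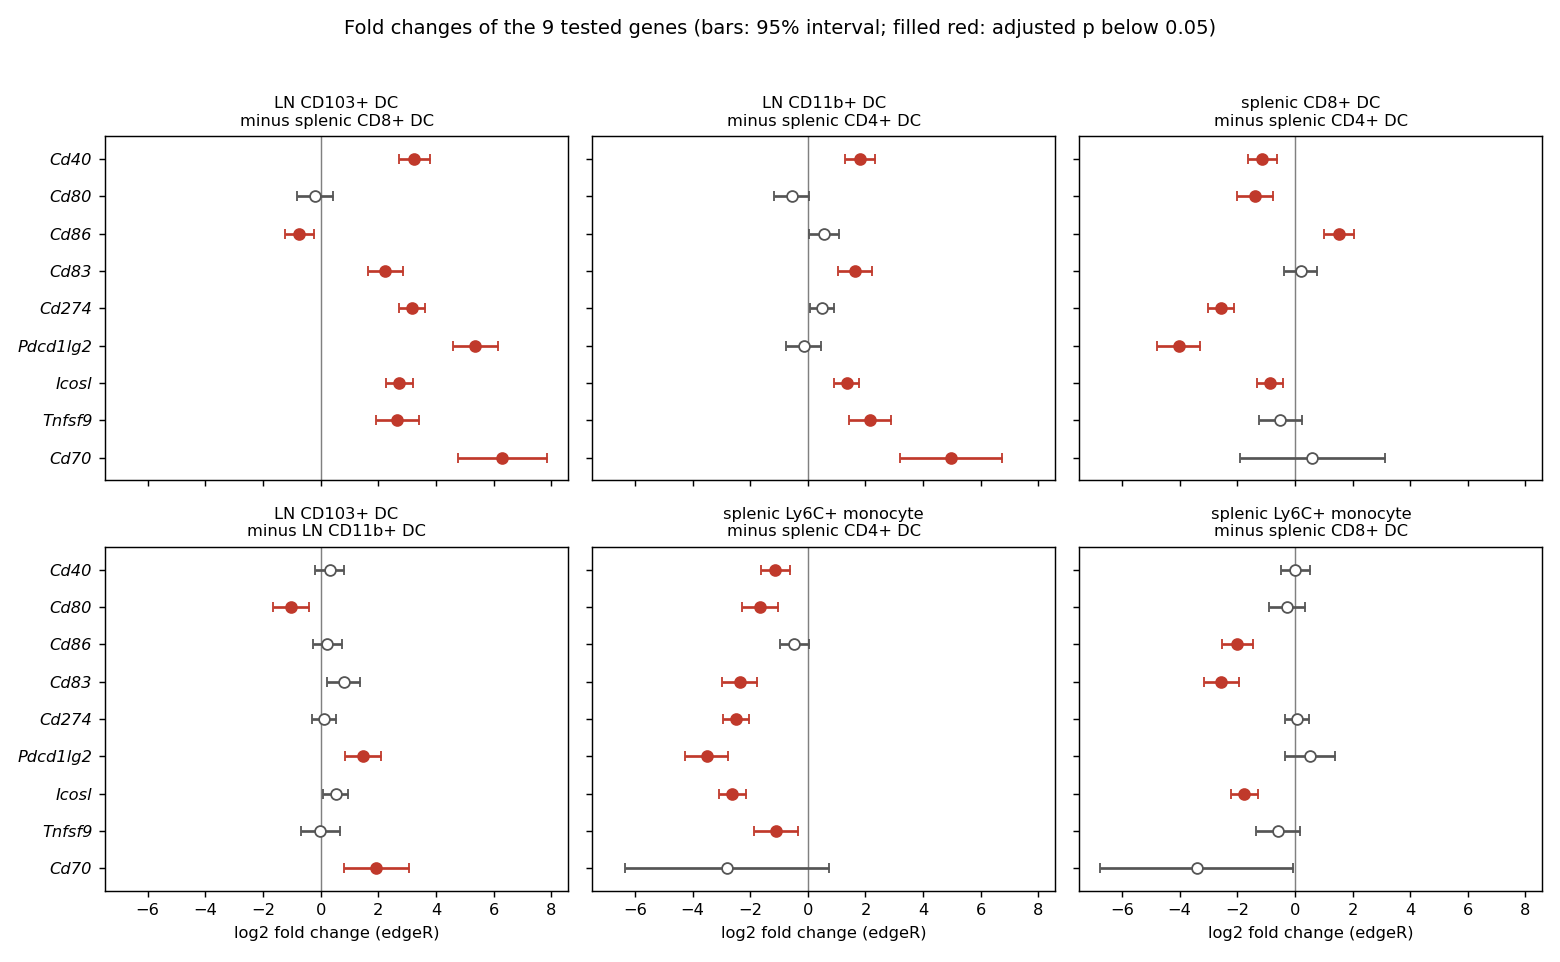
Log2 fold changes of the 9 tested genes in 6 comparisons of subtypes, with 95% intervals, filled red where the adjusted p was below 0.05. The first 2 panels show LN against spleen, where 8 genes in DC1 and 5 in DC2 passed. The Cd70 call in these was fixed by the filter on low counts. The last 2 show monocytes, where each gene that passed was lower.

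Counted together, LN CD103+ DCs differed from splenic CD8+ DCs in 8 of the 9 genes, where 45.6% of all tested genes did. Higher were Cd40, Cd83, Cd274, Pdcd1lg2, Icosl, Tnfsf9 and Cd70, which is 7 of 9 against 23.8% of all genes, and Cd86 was lower. The median log2 difference of the 9 genes was 2.73, beside 0.00 over all tested genes. Cd70 was past the filter through its LN libraries alone, so its excess over the spleen was fixed by the filter. Without Cd70, 6 of 8 genes were higher and 1 lower, with a median of 2.69. In DC2, 5 of 9 genes differed between LN CD11b+ and splenic CD4+ DCs (33.1% of all genes), Cd40, Cd83, Icosl, Tnfsf9 and Cd70, all higher (19.3% of all genes were higher), with a median of 1.34 beside 0.05. Without Cd70 these were 4 of 8 genes, all higher, with a median of 0.95. With the replicate block 7 of 9 genes differed in DC2. In bulk libraries a larger share of cells with a transcript and more transcript per cell cannot be told apart.

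The organ effect differed between the lineages in 5 of the 9 genes, against 11.2% of all genes. The test asked whether the LN minus spleen difference in DC1 equalled that in DC2. It was larger in DC1 for Pdcd1lg2 (given above), Cd274 (log2 2.68 ± 0.29, adjusted p = 8.34e-06), Cd40 (1.44 ± 0.33, adjusted p = 0.00805) and Icosl (1.39 ± 0.29, adjusted p = 0.0044). Cd86 went the other way (log2 -1.30 ± 0.34, adjusted p = 0.0179), and its call was lost without splenic CD8+ DC replicate 3 (log2 -1.07, adjusted p = 0.0534). Cd80, Cd83, Tnfsf9 and Cd70 did not pass, with 95% intervals of -0.49 to 1.24, -0.22 to 1.41, -0.51 to 1.51 and -2.09 to 4.74.

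**Figure D3:**
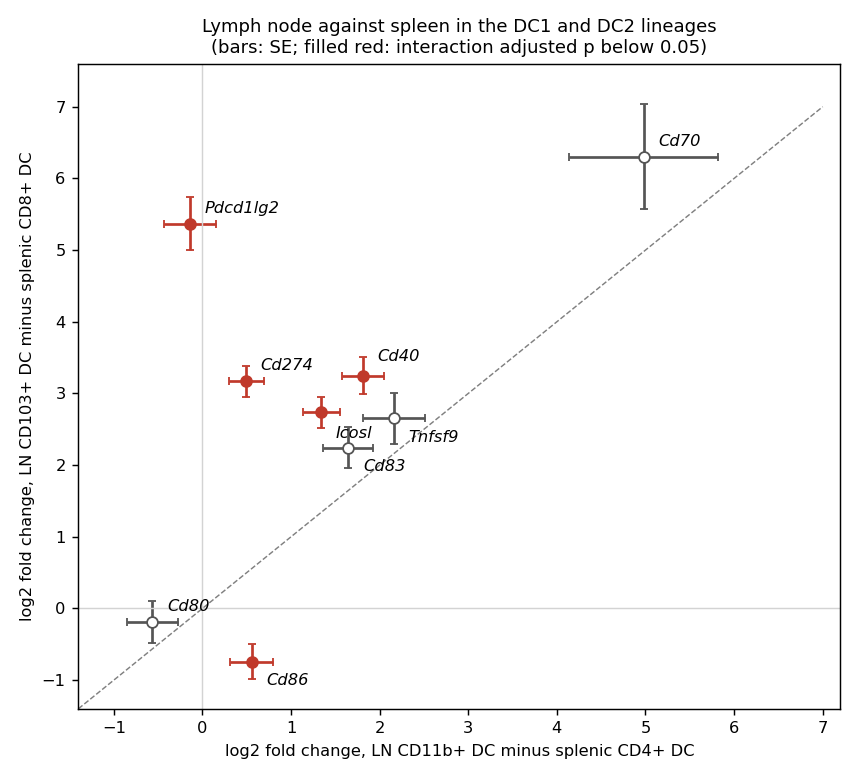
LN minus spleen log2 difference in DC2 (horizontal) against that in DC1 (vertical), with SE bars and the line of equality. The 5 red genes passed the interaction test: Pdcd1lg2, Cd274, Cd40 and Icosl lie above the line and Cd86 below it.

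Within the spleen, 6 of 9 genes differed between the lineages (27.4% of all genes). Lower in CD8+ than in CD4+ DCs were 5 genes (14.4% of all genes were lower), Cd40, Cd80, Cd274, Pdcd1lg2 and Icosl (1.83-fold, adjusted p = 0.00452), and Cd86 was higher. The median over the 9 genes was log2 -0.87, beside 0 over all genes. Cd83 (log2 0.20, 95% interval -0.38 to 0.78) and Tnfsf9 (-0.51, -1.25 to 0.23) did not pass. In the LN, CD103+ and CD11b+ DCs differed in 3 of 9 genes (12.9% of all genes): Pdcd1lg2 and Cd70 were higher in CD103+ DCs (5.22% of all genes were) and Cd80 lower (7.73%). The count was 1 without LN CD103+ DC replicate 1, LN CD103+ DC replicate 2 or LN CD11b+ DC replicate 3.

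In splenic Ly6C+ monocytes each gene that differed from a DC subtype was lower. Against splenic CD4+ DCs, 7 of 9 genes differed (48.0% of all genes), all lower (24.2% of all genes were lower): Pdcd1lg2 by 11.5-fold, Icosl by 6.16-fold, Cd274 by 5.62-fold, Cd83 by 5.11-fold, Cd80 by 3.17-fold, Tnfsf9 by 2.18-fold and Cd40 by 2.17-fold. The median log2 difference, leaving out Cd70 with its counts at or near 0 in both groups, was -2.01 over 8 genes. Against splenic CD8+ DCs, 3 of 9 differed (42.1% of all genes), all lower (21.7%): Cd83 by 5.87-fold (log2 -2.56 ± 0.29), Cd86 by 3.98-fold (-1.99 ± 0.25) and Icosl by 3.37-fold (-1.75 ± 0.22). For Cd40 and Cd274 the difference from splenic CD8+ DCs had intervals of -0.49 to 0.51 and -0.35 to 0.50 on the log2 scale. Monocytes were lower than LN CD103+ DCs in 8 of 9 genes (53.2% of all genes differed, 28.6% were lower), the exception being Cd80 (log2 -0.09, 95% interval -0.72 to 0.54), and lower than LN CD11b+ DCs in 9 of 9 (47.8% differed, 26.5% were lower). Cd70 was past the filter through its LN libraries alone, so its place in both counts was fixed by the filter. Leaving out Cd70, monocytes were lower in 7 of 8 and 8 of 8 genes. These comparisons share the monocyte libraries.

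In the test over all 5 subtypes, 9 of 9 genes differed, as did 73.5% of all tested genes. The place of Cd70 in this count was fixed by the filter, and each of the other genes differed without it. Across the 10 pairs of subtypes, 67 gene-by-pair tests of the 9 genes passed, those of Cd70 among them. Over all tested genes, the share that passed ran from 12.9% (between the LN DCs) to 53.2% (monocytes against LN CD103+ DCs) by pair. Between LN CD103+ DCs and splenic CD4+ DCs 9 of 9 genes passed (47.0% of all genes). Between LN CD11b+ DCs and splenic CD8+ DCs it was also 9 of 9 (39.9% of all genes). The Cd70 calls between LN and spleen were fixed by the filter, and without Cd70 both pairs had 8 of 8 genes. LN CD103+ DCs had the highest mean of 7 of the 10 genes. The exceptions were Cd80, Cd86 and Tnfsf9, and the last had 67.1 ± 16.5 CPM there and 67.7 ± 25.8 CPM in LN CD11b+ DCs (SD, n = 3; adjusted p = 0.995, 95% interval of the log2 difference -0.69 to 0.68). For Cd40, Cd83, Cd274 and Icosl the LN CD11b+ DCs came next and were not separated by the test (adjusted p from 0.0656 to 0.788). Tnfsf4 was too low to be tested.

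Per unit of length, the 10 genes together made up 4558 ± 416 TPM in LN CD103+ DCs and 3166 ± 401 TPM in LN CD11b+ DCs. The sum was 1259.8 ± 122 TPM in splenic CD4+ DCs, 1019 ± 174 TPM in splenic CD8+ DCs and 328 ± 55.8 TPM in monocytes (SD, n = 3). Libraries of the LN DCs (2703 to 4821 TPM), the splenic DCs (889 to 1399 TPM) and the monocytes (276 to 387 TPM) did not overlap. Cd83 was the leading gene throughout, with 57.5% ± 5.32 of the sum in splenic CD8+ DCs and 32.6% ± 5.12 in monocytes. Cd86 made up 16.4% ± 1.41 of the sum in splenic CD8+ DCs, 13.9% ± 1.04 in monocytes, and 2.10% ± 0.462 in LN CD103+ DCs. For Cd40 the share was lowest in splenic CD8+ DCs (5.99% ± 0.747) and highest in monocytes (20.3%, range 19.4% to 21.5%).

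**Figure D4:**
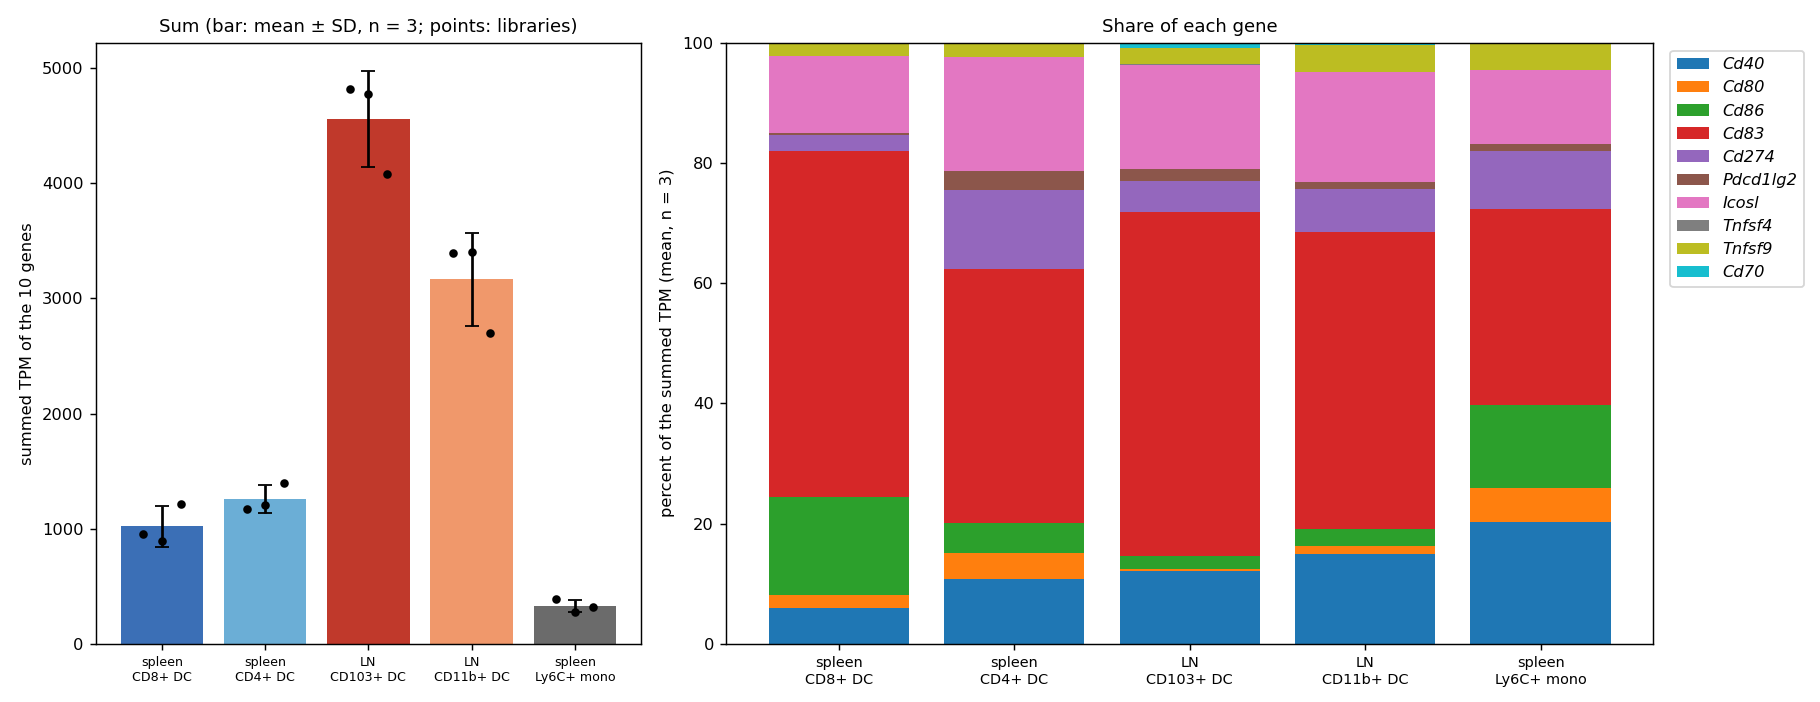
Left, the summed TPM of the 10 genes by subtype (mean ± SD, points for the 3 libraries), highest in LN CD103+ DCs at 4558. Right, the mean share of each gene in that sum, led by Cd83 in all 5 subtypes; Cd86 takes 16.4% in splenic CD8+ DCs and 2.10% in LN CD103+ DCs.

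The balance between ligands of related receptors set some subtypes apart, while the ranges of others overlapped. In TPM, Cd86 exceeded Cd274 in splenic CD8+ DCs by 4.46 to 8.41 times and in monocytes by 1.21 to 1.71 times. Its ratio to Cd274 was below 1 in the other DCs, at 0.219 to 0.474 in splenic CD4+ DCs, 0.348 to 0.464 in LN CD103+ DCs and 0.265 to 0.583 in LN CD11b+ DCs. Cd86 to Cd80 was 6.54 to 11.7 in splenic CD8+ DCs and 4.64 to 6.54 in LN CD103+ DCs. The DC2 lineage had lower ratios, 0.613 to 1.64 in splenic CD4+ DCs and 2.09 to 2.66 in LN CD11b+ DCs, with 2.24 to 2.71 in monocytes. Cd274 exceeded Pdcd1lg2 in every library, by 2.36 to 2.71 times in LN CD103+ DCs, 3.38 to 5.12 times in splenic CD4+ DCs, 6.17 to 6.82 times in LN CD11b+ DCs and 8.12 to 9.01 times in monocytes. The splenic CD8+ DC ratios, 7.21 to 45.6, rest on as few as 4 counts of Pdcd1lg2.

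**Figure D5:**
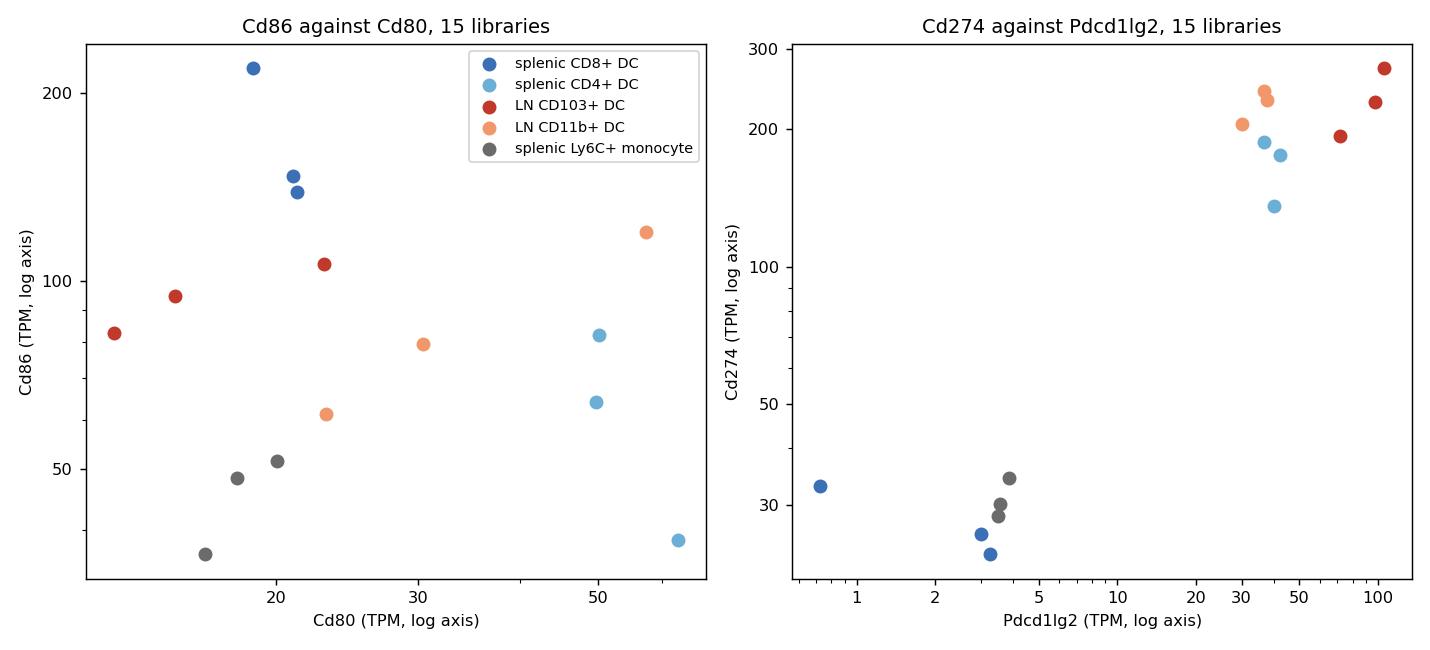
TPM of Cd86 against Cd80 and of Cd274 against Pdcd1lg2 in the 15 libraries, on log axes, coloured by subtype. Splenic CD8+ DCs stand alone at high Cd86 with low Cd80, and the PD-1 ligands fall into a low group (splenic CD8+ DCs and monocytes) and a high group (the other 3 DC subtypes).

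Genes of the same pathways were followed through 6 lists. Over all tested genes, 45.6% differed between the organs in DC1 and 23.8% were higher in the LN, and 33.1% differed in DC2 with 19.3% higher. In the CD40 signalling list, 12 of 12 genes were higher in LN CD103+ than in splenic CD8+ DCs, with a median log2 difference of 2.35, and 11 of 12 were higher in LN CD11b+ than in splenic CD4+ DCs, with a median of 1.27. Relb, the NF-kB subunit of the alternative pathway, rose 17.8-fold in DC1 (162 to 2874 CPM, log2 4.15 ± 0.25, adjusted p = 4.14e-10). Birc2, an E3 ligase of the CD40 receptor complex, rose 16.2-fold in DC1 and 6.07-fold in DC2, and Tnfaip3, the feedback inhibitor A20, rose 9.65-fold and 5.14-fold. Tank, a TRAF-binding adaptor, rose 3.00-fold in DC2. In the interaction test 9 of the 12 passed, all with a larger organ difference in DC1 (11.2% of all genes passed), and in the spleen 11 of 12 were lower in CD8+ than in CD4+ DCs (14.4% of all genes).

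The list of the members' receptors, which are T cell genes for the most part, had 7 of 8 genes higher in LN DC1 (median log2 3.47) and 5 of 8 in LN DC2 (median 2.41). Tnfrsf4, the OX40 receptor, reached 1268 CPM in LN CD103+ DCs, while LN CD11b+ DCs had 705 CPM, which was 74.5-fold and 27.6-fold above their splenic counterparts in that order. Tnfrsf9, which encodes 4-1BB, had 311 and 274 CPM in LN CD103+ and LN CD11b+ DCs, against 2.48 and 6.13 CPM in the spleen, and Cd28 had 14.7 and 16.2 CPM against 0.981 and 2.77 CPM. Beside these, the T cell markers Cd3e and Lck had means of 7.62 and 49.2 CPM in LN CD103+ DCs, while LN CD11b+ DCs had 3.29 and 39.3 CPM. The part of T cell RNA in these values was not tested.

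Among 8 regulators of surface display, 4 rose and 3 fell in each LN comparison. March1, the ubiquitin ligase that removes CD86 and MHC class II from the surface, fell 18.3-fold in DC1 (172 to 9.39 CPM, log2 -4.20 ± 0.43, adjusted p = 2.70e-07) and 4.87-fold in DC2 (103 to 21.2 CPM, adjusted p = 0.000197). Cblb, another ubiquitin ligase, rose 11.3-fold and 6.15-fold, and Rgmb, a PD-L2 binding partner, 5.76-fold and 5.30-fold. In the list of other B7 family and checkpoint ligands, 9 of 11 genes were tested, of which 4 rose and 1 fell in LN DC1 and 5 rose and 1 fell in LN DC2. Pvr, a ligand of DNAM-1 and TIGIT, rose 18.5-fold and 11.7-fold, and Cd200, which signals to an inhibitory receptor on myeloid cells, 7.77-fold and 24.1-fold. Ceacam1 rose 6.81-fold in DC1 and Nectin2 6.95-fold in DC2.

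Of the other TNF superfamily ligands, 6 rose and 1 fell among 12 tested in LN DC1, and 5 rose and 3 fell in LN DC2. None of the genes that passed in DC1 reached a mean of 10 CPM in either organ. The 3 largest of these changes in DC2 at 10 CPM or more were Tnfsf14 (LIGHT), 5.18-fold lower, Lta (lymphotoxin alpha), 4.32-fold higher, and Tnfsf13 (APRIL), 3.38-fold higher. Adhesion and SLAM genes were divided, with 3 higher and 4 lower of 9 in LN DC1 and 4 higher and 3 lower in LN DC2. Slamf1, a receptor that binds itself across cells, rose from 0.281 to 36.5 CPM in DC1 and from 0.386 to 13.7 CPM in DC2. Cd209a, the mouse relative of DC-SIGN, fell from 70.2 to 0.739 CPM in DC1 and 4.05-fold in DC2, Ly9 fell 4.91-fold in DC1 and Cd24a rose 4.11-fold in DC2.

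The genes most like each member were found by Pearson r of log2 CPM over the 15 libraries, which share their 5 subtypes. Cd40 was followed most closely by D330050G23Rik (0.993), Ccser2 (0.990) and Birc2 (0.986), and Icosl by Slc44a1 (0.992) and Snn (0.988). The genes nearest to Cd83 were Hmgn3 (0.983), Cacnb3 (0.982) and Akap2 (0.979), and those nearest to Cd70 were Ccdc96 (0.987), Tdh (0.986) and Plat (0.985). Cd274 was nearest to Relb (0.979), Spire1 (0.979) and Gm17641 (0.973), Pdcd1lg2 to Trove2 (0.969), Specc1 (0.960) and Dnajc22 (0.953), and Tnfsf9 to Stxbp3 (0.977), Fam177a (0.975) and 1600012P17Rik (0.969). Cd86 (Ildr1 0.962, Gpr141b 0.948, Hepacam2 0.945) and Cd80 (Cnga3 0.928, Rpl19-ps1 0.920, Agk 0.919) had looser partners. Cd40, Cd83, Cd274, Pdcd1lg2, Icosl, Tnfsf9 and Cd70 correlated with each other at r from 0.722 to 0.949.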

How the data were processed

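RNA of 15 libraries was amplified from poly-A RNA and sequenced on Ion Torrent. The authors aligned reads with STAR 2.4.0j to mm10 and counted them per Ensembl gene, without strand, with featureCounts (Subread 1.5.2). The deposited values were gene counts, and TPM that the authors computed from these counts. The 2 runs of each monocyte library were summed. Here, genes above 1 CPM in at least 3 libraries (14456) were fitted in edgeR 4.0.16 (R 4.3.3) with TMM factors, a mean per subtype and the quasi-likelihood test, two-sided, with Benjamini-Hochberg adjustment over all genes tested and a threshold of 0.05. Intervals are at 95%. Counting ratios pool the 3 libraries, with a floor of 3 counts over a group at 0. Levels between genes were compared in the deposited TPM. DESeq2 1.42.0, limma 3.58.1 on log2(TPM + 1) and other alternatives were run, and the fitting was tested on simulated data. The genes and lists were chosen with earlier results of these data known. From each pathway list the 3 genes with the largest change were named for each organ comparison and for monocytes against splenic CD4+ DCs, among those past the threshold at 10 CPM or more in the higher group. Replicates differed by 5.19 to 57.81 times the counting variance, so none was a repeat deposit. The 3 genes most like each member were sought by Pearson correlation, and 1 of them is not reported here. The labels repeat replicate numbers without saying what they share. Same-number libraries deviated together (every correlation over 0.1) in 4 of 10 pairs of subtypes: splenic CD8+ with CD4+ DCs (0.162 to 0.375), LN CD103+ with CD11b+ DCs (0.179 to 0.259) and splenic CD4+ DCs with each LN DC (0.117 to 0.266). In the other 6 pairs, all those with monocytes among them, not every correlation was over 0.1. Splenic CD8+ DCs gave 0.0374 to 0.0860 with LN CD103+ DCs and 0.0163 to 0.182 with LN CD11b+ DCs. Between DC subtypes the own number was the best match in 18 of 18 cases. With monocytes 0 of 12 correlations were over 0.1. The pairing comes from this check of the data, and blocked values stand beside the results whose call they changed.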

Additional observations from a re-analysis of the deposited data

Results flagged for a closer look

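In 5 genes the LN minus spleen difference was not the same in DC1 as in DC2, by the test of the difference itself (edgeR quasi-likelihood, Benjamini-Hochberg adjusted). The DC1 difference exceeded the DC2 one by log2 5.51 for Pdcd1lg2, 2.68 for Cd274, 1.44 for Cd40 and 1.39 for Icosl. For Cd86 the value was -1.30, with the LN level below the splenic level in DC1. Cd274 and Pdcd1lg2 had LN and splenic libraries overlapping in DC2 and apart in DC1.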

How the results depend on the processing

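The counts of genes past the threshold stayed within 1.5 times under each alternative that gave a value, except between the 2 LN DCs, where leaving out a library gave 1 to 3 genes against 3. The value was 1 without LN CD103+ DC replicate 1, LN CD103+ DC replicate 2 or LN CD11b+ DC replicate 3, and the cause was not tested. With the replicate block, Tnfsf9 between the LN DCs changed sign from -0.0082 to log2 0.0098, and to 0.023 with the block within organ. With the block 7 genes differed between LN CD11b+ and splenic CD4+ DCs, against 5. Beside the calls printed with their results, the block brought Cd86 in monocytes against splenic CD4+ DCs past the threshold (log2 -0.44, adjusted p = 0.0457), a pair of groups whose numbers did not correlate, and it changed no other call. Leaving out a library turned the sign of differences that had not passed the test, with log2 ranges of -0.26 to 0.0071 for Pdcd1lg2 between LN CD11b+ and splenic CD4+ DCs, -0.039 to 0.32 for Cd83, -0.77 to 0.083 for Tnfsf9 and -0.70 to 3.43 for Cd70 between splenic DCs, and -0.036 to 0.23 for Cd274 and -0.20 to 0.34 for Tnfsf9 between LN DCs. For monocytes against splenic CD8+ DCs they were -0.14 to 0.18 for Cd40 and -0.020 to 0.20 for Cd274, and in the interaction -0.091 to 0.85 for Tnfsf9 and -1.50 to 2.60 for Cd70. Without splenic CD4+ DC replicate 3, Cd70 against monocytes gave no value. Over all genes, splenic CD8+ against CD4+ DCs gave 3966 calls, 2600 when those subtypes alone were fitted and 2643 with an absolute log2 change of at least 1. The LN DCs gave 1872 calls, and 1216 without LN CD103+ DC replicate 2. Leaving out the monocyte libraries was chosen after seeing the data.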

Other observations

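Monocytes exceeded splenic CD4+ DCs in other ligands of the lists. Of 9 other B7 family and checkpoint ligands, 6 were higher and 1 lower, where 48.0% of all tested genes differed: Ceacam1 by 30.8-fold (318 against 10.3 CPM), Lgals9, which encodes galectin-9, by 5.14-fold and Vsir, which encodes VISTA, by 4.14-fold. Of 12 other TNF superfamily ligands, 3 were higher and 6 lower, with Tnfsf13 (APRIL) 32.2-fold and Tnfsf12 (TWEAK) 18.4-fold higher and Ltb, lymphotoxin beta, 23.4-fold lower. Among adhesion and SLAM genes, Cd84 was 14.6-fold higher, and Cd24a and Slamf7 were 5.13-fold and 4.90-fold lower. Of the display regulators, March8, a relative of March1, was 6.00-fold and Itch 1.59-fold higher, and Cmtm6, which keeps PD-L1 at the surface, had 259 against 51.7 CPM. Relb, Traf1 and Birc2 of CD40 signalling were 7.95-fold, 7.69-fold and 2.84-fold lower, and the receptors Icos and Tnfrsf4 52.0-fold and 30.5-fold lower. Neutrophil markers summed to 141 to 237 CPM in monocytes and to at most 1.49 CPM in DCs. Ngp, Ltf and Camp led that sum, with means of 99.2, 49.8 and 25.3 CPM in monocytes. Mpo, Elane, Ly6g and Retnlg of the same list were at 3.04, 1.98, 0.219 and 0.173 CPM. The part of neutrophils in these values was not tested.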
